A study of Homo sapiens with 4 samples.

Results

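The CNC, BACH and small MAF transcription factors, with the inhibitor KEAP1, are 10 genes: *NFE2*, *NFE2L1*, *NFE2L2*, *NFE2L3*, *BACH1*, *BACH2*, *MAFF*, *MAFG*, *MAFK* and *KEAP1*. They were chosen by name, and their probes were found through the transcript accession of each probe on the array. This gave 16 probes for the 10 genes, of 41000 probes on the array and 17673 genes that could be named. Each of the 16 probes has 1 spot per array.

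The samples are Nalm-6 cells, an established human pre-B line, grown without oxidative stress and read on Agilent single-color arrays. Wild-type cells, Arp5 KO cells and Arp8 KO cells have 1 array each, and so do cells labelled Arp8 overexpression, so no difference has a replicate check and the number of arrays limits the precision. Arp5 and Arp8 are actin-related subunits of the INO80 chromatin remodeling complex, and in each KO line both alleles of the gene had been disrupted by homologous recombination. The label Arp8 overexpression stands for Arp8 KO cells that carry an Arp8 gene under tetracycline control (Tet-Off), and whether that gene was active when RNA was taken is not given in the sources used here.

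Signals are brightness in arbitrary units after the scanner software's background subtraction. Wherever 4 signals are listed without names, their order is wild type, Arp5 KO, Arp8 KO, labelled Arp8 overexpression, and 3 log2 ratios so listed are the last 3 of these over wild type. Of 43376 spots other than controls on an array, the part well above background was 71.9%, 72.4%, 70.1% and 71.0%. Arrays were scaled to the 75th percentile of the signal, which was 1980, 1950, 2004 and 2012 units. All lay on 1 slide that was scanned once, so neither slide nor scan separates the genotypes.

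CNC proteins are basic leucine zipper factors that bind antioxidant response elements and the longer Maf recognition elements only as a pair with a small MAF protein. NFE2, NRF1, NRF2 and NRF3, the products of *NFE2* and the *NFE2L* genes, have transactivation domains, whereas BACH1 and BACH2 repress the same kind of element, BACH1 in a manner released by heme. Small MAFs have no transactivation domain of their own, KEAP1 hands NRF2 to a cullin ligase for degradation, and BACH2 is known in B cells for holding back plasma cell differentiation.

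Before the members, the labels and the cell type were checked. *ACTR5*, which encodes Arp5, gave 1909, 65.3, 1849 and 2088 units, so that its mRNA was low only where Arp5 had been targeted. *ACTR8*, which encodes Arp8, gave 1092, 993, 785 and 679 units by one probe and 2149, 2233, 1654 and 1857 units by another. Their log2 ratios for Arp8 KO over wild type were only -0.49 and -0.40, and neither probe was above wild type on the array labelled Arp8 overexpression. These signals thus bear out neither Arp8 label, both are used here as given, and no direction of Arp8 dose is drawn from these arrays. All 12 pre-B markers examined were well above background on each array, with *IGLL1* the brightest at 140475 units in wild-type cells. Most markers of other cells were dim or not well above background, apart from *KRT8*, the plasma cell marker *SDC1* and another such marker, *JCHAIN*, which was bright on the array labelled Arp8 overexpression. Of 4 T-cell markers *CD2*, *CD3E* and *CD8A* were well above background on each array, the brightest being *CD8A* with 135.4, 134.3, 112.0 and 133.5 units, and *CD3D* was not on any. *HBB* (erythroid cells) and *EPCAM* (epithelium) were not well above background on any array, whereas *KRT8*, a keratin gene, gave 941, 1045, 993 and 850 units by one probe and was not well above background on any array by another. All 4 myeloid markers were above background but dim. *LYZ* gave 55.4, 46.3, 142.7 and 139.7 units, *ITGAM* 38.4, 28.4, 74.8 and 55.2 and *CSF1R* 11.1, 11.0, 16.2 and 25.3. These were higher on both arrays of Arp8-targeted cells than in wild-type cells. *CD14* gave 119.5, 124.4, 122.6 and 110.0 units and showed no such difference. *CSF1R* was under 20 units in wild-type and Arp8 KO cells, where the technical error described below is largest. Its difference between wild-type and Arp8 KO cells is therefore not resolved.

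Technical error was taken from probes that are spotted repeatedly. The median SD of a log2 ratio over probes with repeated spots, taken for each pair of arrays, was 0.03 for a dimmest signal over 500 units, between 0.06 and 0.07 from 50 to 500 units, between 0.16 and 0.23 from 20 to 50 units and between 0.44 and 0.49 under 20 units. Variation between cultures is not part of it. This error is small against what separates these arrays. Over all 29881 probes tested for Arp5 KO over wild-type cells, 64.2% were beyond 2 technical SD, and the same held for 65.3% of 29337 probes for Arp8 KO over wild-type cells. A member ratio beyond 2 technical SD is therefore measured above the noise of the spot, but is not set apart from most genes on the array.

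Of the 16 member probes, 14 were well above background on all 4 arrays, and these cover 9 of the 10 genes. The exceptions were the *NFE2* probe and the dimmer of the 2 *NFE2L3* probes. A ratio was taken where the brighter of the 2 arrays was well above background. For Arp5 KO over wild-type cells 0 of 14 tested probes were higher beyond 2-fold, against 1.17% of all probes tested, and 0 were lower, against 1.14%. For Arp8 KO over wild-type cells 0 of 14 were higher, against 1.48%, and 1 was lower, against 2.07%. This was *MAFF*. On the array labelled Arp8 overexpression, relative to wild-type cells, 1 of 15 was higher, against 1.48% of all probes, and 1 was lower, against 2.76%. These were *NFE2* and again *MAFF*. When Arp8 KO cells were taken relative to that array, 0 of 15 were higher, against 0.94%, and 1 was lower, against 0.927%, which was *NFE2*. Counts of 0 or 1 in 14 or 15 probes lie near these shares and are no result about the members as a group.

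Medians of the members lay near 0 in each comparison. For Arp5 KO over wild-type cells their median log2 ratio was -0.04, with 6 probes higher and 8 lower, and the median over all probes was 0.04. For Arp8 KO over wild-type cells it was 0.07, with 8 higher and 6 lower, against 0.01 over all probes. The array labelled Arp8 overexpression gave -0.13, with 6 higher and 9 lower, against 0.01. Arp8 KO relative to that array was the most one-sided, with 12 higher and 3 lower and a median of 0.10, against 0.01. The median absolute log2 ratio of the members was 0.15 for Arp5 KO and 0.12 for Arp8 KO over wild-type cells, against 0.19 and 0.21 over all probes. It was larger than over all probes on the array labelled Arp8 overexpression, at 0.23 against 0.21, and smaller for Arp8 KO relative to that array, at 0.12 against 0.17. The ratios to wild-type cells share the wild-type array, so that its own error enters each of them, and their likeness to one another is not used as a result.

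**Figure D1:**
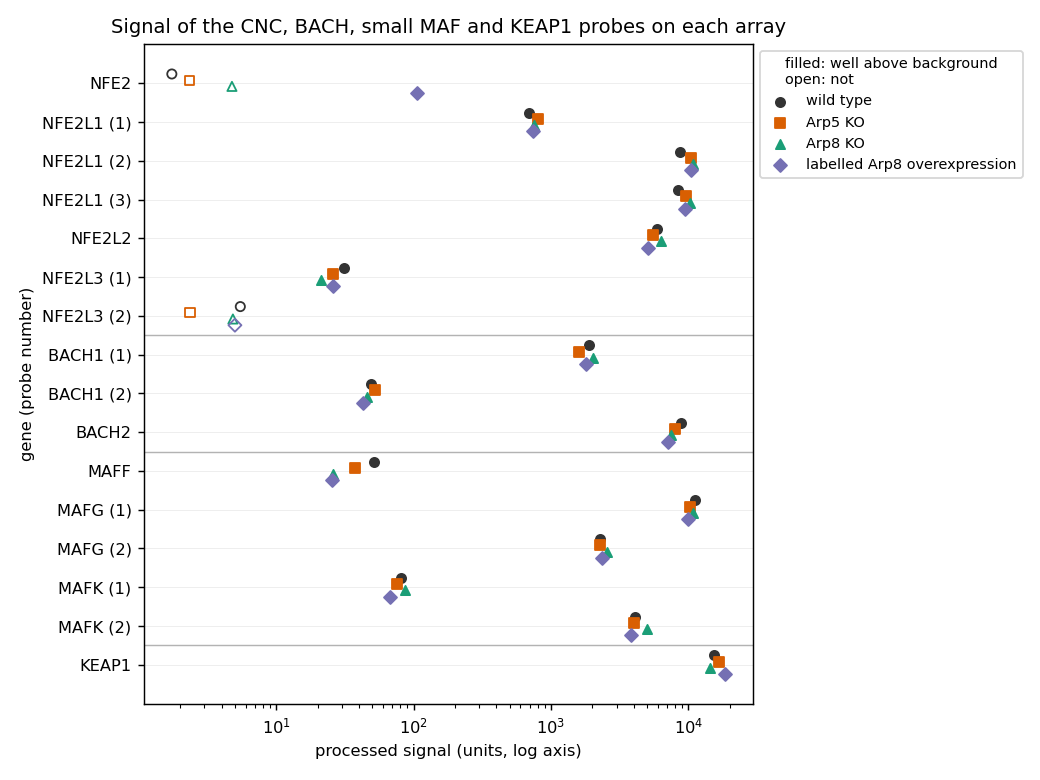
Processed signal in arbitrary units, on a log axis, of the 16 probes on the 4 arrays, filled where well above background and open where not. *NFE2* is filled on 1 array alone, the array labelled Arp8 overexpression at 105.3 units, and *MAFF* is brightest in wild-type cells at 51.6 units.

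Among the activators, *NFE2L2* encodes NRF2, the main inducer of antioxidant genes. Its probe gave 5899, 5502, 6284 and 5119 units. The Arp8 KO array was the highest and the array labelled Arp8 overexpression the lowest, and each step in this order was larger than 2 technical SD. Its log2 ratios over wild type were -0.08, 0.07 and -0.23. Between Arp8 KO cells and that array the difference was 0.30, a level 1.23-fold higher in Arp8 KO cells. Among all probes of this brightness 18.6% differed at least as much between these 2 arrays.

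*NFE2L1* encodes NRF1, which is held in the endoplasmic reticulum and induces proteasome genes after its release. It has 3 probes. A_24_P219552 gave 8643, 10434, 10830 and 10501 units. A_32_P163469 gave 8451, 9606, 10311 and 9521 units in the same order. A_23_P78302 gave 690.4, 810.2, 752.9 and 739.4 units. Wild-type cells were the lowest array for all 3 probes. The log2 ratios of the 3 probes over wild type ran from 0.21 to 0.29 for Arp5 KO, from 0.11 to 0.31 for Arp8 KO and from 0.08 to 0.26 for the array labelled Arp8 overexpression. All 9 of these ratios were beyond 2 technical SD and stayed above 0 under every scaling and background setting tried. The mean over the probes corresponds to 1.19-fold in Arp5 KO and 1.17-fold in Arp8 KO cells. The array labelled Arp8 overexpression was next above wild type for all 3 probes, and Arp8 KO cells were the highest for A_24_P219552 and A_32_P163469 but Arp5 KO cells for A_23_P78302. For A_24_P219552 and A_32_P163469 no step between neighbours among them passed 2 technical SD. Of all probes of this brightness, 22.1% differed for Arp5 KO at least as much as A_24_P219552, 28.8% as much as A_23_P78302 and 38.1% as much as A_32_P163469. For Arp8 KO the shares were 25.1%, 67.2% and 30.8% in the same order of probes.

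*NFE2L3* encodes NRF3, a membrane-bound relative of NRF1. Its probe A_23_P42718 was dim, with 31.3, 25.9, 21.3 and 25.8 units. Wild-type cells were the highest and Arp8 KO cells the lowest, but no neighbours in this order were apart by 2 technical SD. The outermost pair had a log2 ratio of -0.57 for Arp8 KO over wild-type cells, which is beyond 2 technical SD with the SD of 0.23 from the later grouping and within it with 0.46 from the planned one. Normexp, whose offset shrinks dim ratios by construction, gave -0.22, and the ratio stayed below 0 in every setting tried. As it passes 2 technical SD with only 1 of the groupings, a lower level of *NFE2L3* is not shown. The other probe, A_24_P136653, read 5.48, 2.36, 4.84 and 5.01 units and was not well above background on any array, so it has no ratio.

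*NFE2* encodes the erythroid and megakaryocytic CNC factor p45. Its only probe, A_23_P13753, read 1.74, 2.35, 4.76 and 105.3 units, and only the last of these was well above background. The level on the array labelled Arp8 overexpression was at least 13.4-fold that in wild-type cells, a log2 ratio of at least 3.74, when the wild-type array was set at its lowest signal well above background, 7.76 units. Against Arp8 KO cells it was at least 11.1-fold higher. Under normexp, whose offset shrinks dim ratios, the log2 ratios were 1.53 over wild type and -1.38 for Arp8 KO over that array, both still beyond 2-fold. Between wild-type and either KO cell line no ratio can be given. The scanner software marked this spot neither as uneven nor as an outlier on any array. Its median pixel signal on the array labelled Arp8 overexpression was 151.5 units over a local background of 24, against 34.5 over 28 in wild-type cells. The 14 spots around it had a median of 266, 314, 348 and 298 units. A single spot gives this value, and it was not measured again.

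Signals found on 1 array alone were examined over the whole array, after the *NFE2* value had been seen. The array labelled Arp8 overexpression had 179 probes that were well above background there and on no other array, with a median of 11.3 units. Only 3 of the 179 were over 100 units, and *NFE2* was the dimmest of these, after *EPB41L4A* at 1193 units and *C11orf16* at 723 units. The wild-type array had 253 probes of this kind with 4 over 100 units, Arp5 KO cells 392 with 1 and Arp8 KO cells 82 with 2. The erythroid markers *HBA1* and *ALAS2* were well above background on each array. *HBA1* gave 91.1, 86.3, 87.6 and 83.6 units and the brighter *ALAS2* probe 21.3, 21.0, 24.95 and 23.8 units. Neither showed a step at the array labelled Arp8 overexpression like that of *NFE2*.

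**Figure D2:**
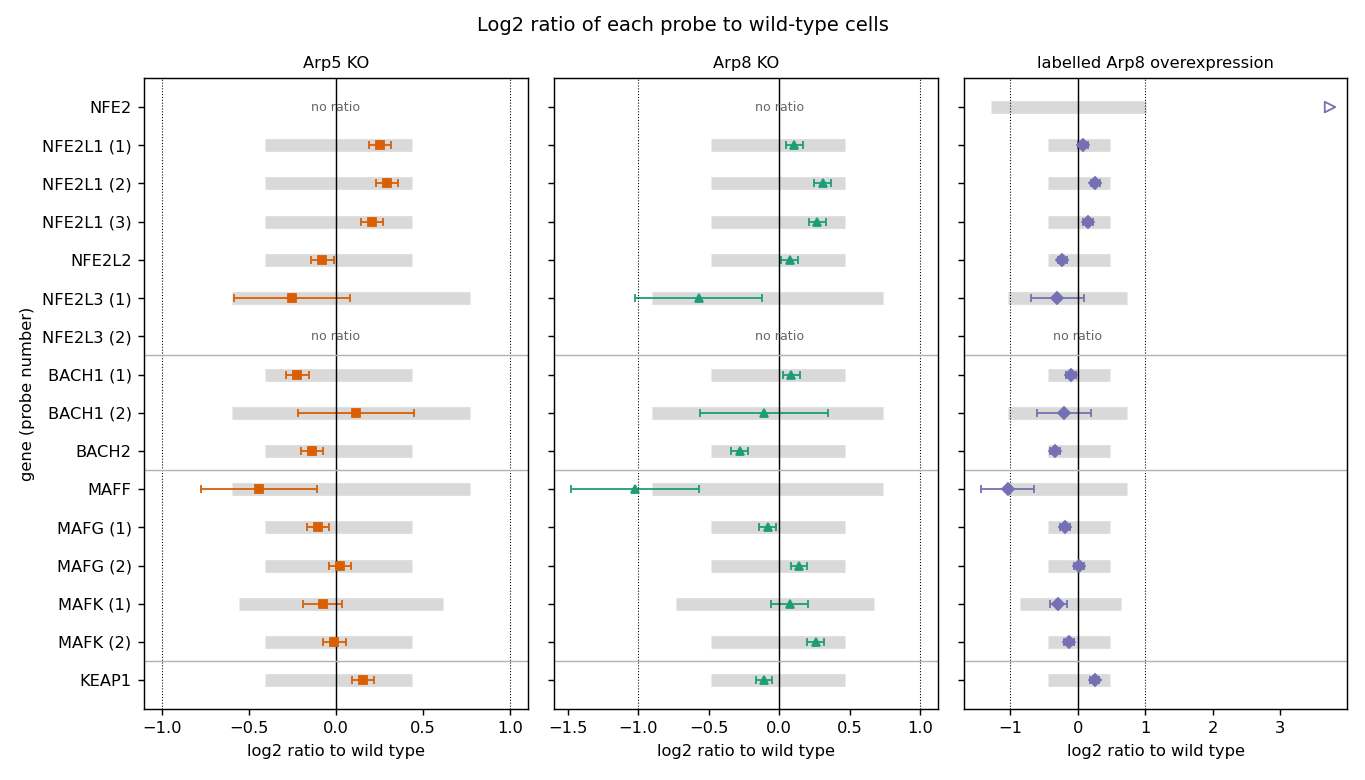
Log2 ratio of each probe to wild-type cells, in 1 panel per array with its own axis, with bars of 2 technical SD, where grey bands run from the 5th to the 95th percentile of all probes of like brightness, the open triangle is a minimum and dotted lines mark 2-fold. In Arp8 KO cells *MAFF* lies below its band, at -1.02, and the other members lie within theirs.

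The repressor *BACH2* showed 8903, 7962, 7419 and 7155 units. Wild-type cells had the highest level and the 2 arrays of Arp8-targeted cells the lowest, and the step between these 2 was under 2 technical SD. Log2 ratios over wild type were -0.14, -0.28 and -0.34, and the level in Arp8 KO cells was 1.21-fold lower. Under each of the scalings and background corrections tried all 3 stayed below 0. Of all probes of this brightness, 29.2% differed at least as much between Arp8 KO and wild-type cells.

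*BACH1*, the heme-binding repressor, is read by 2 probes. A_23_P211047 gave 1889, 1595, 2031 and 1790 units. Arp5 KO cells were thus the lowest and Arp8 KO cells the highest, and every step was beyond 2 technical SD. Its log2 ratios over wild type were -0.22, 0.09 and -0.10. The dim probe A_24_P299034 gave 48.8, 52.0, 45.8 and 43.1 units. Its ratios of 0.11 for Arp5 KO and -0.11 for Arp8 KO have the opposite signs but lie within 1 technical SD of 0, so this probe gives no direction.

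Motifs were looked for in the promoter windows of the members, which RefSeq (GRCh38.p14) gives as 300 bases, 250 before and 50 after a transcription start. Windows were found for 8 of the 10 genes, 14 in all. The core of the antioxidant response element, TGANNNNGC, was searched on both strands and occurred in 6 of the 14 windows, those of *BACH1*, *BACH2*, *KEAP1*, *MAFF*, *MAFG* and *NFE2L2*, and in 41.8% of all 34943 windows of this length. TGAGTCA, the element that CNC factors with small MAFs share with AP-1, occurred in 1 member window and in 4.96% of all windows. The full-length Maf recognition element occurred in 0 of all 34943 windows, so it says nothing about the members. The 2 motifs printed here can overlap, and a match is a description of letters only. The window of *BACH1* that holds TGAGTCA, 48 bases before the start, is shown because it is the only one among the members, with the match in capitals (chr21:29298672-29298971, plus strand). The window of *NFE2L2* is shown because NRF2 is the main factor for this element, and it holds 2 matches to TGANNNNGC, 146 and 16 bases before the start (chr2:177264082-177264381, minus strand). The *KEAP1* window, not shown, holds 3.
BACH1: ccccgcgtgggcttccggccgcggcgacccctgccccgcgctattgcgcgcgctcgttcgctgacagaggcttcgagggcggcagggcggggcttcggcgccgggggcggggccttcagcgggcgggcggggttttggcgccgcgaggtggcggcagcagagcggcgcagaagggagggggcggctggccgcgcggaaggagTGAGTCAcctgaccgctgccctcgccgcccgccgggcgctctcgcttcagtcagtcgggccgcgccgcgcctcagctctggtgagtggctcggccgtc
NFE2L2: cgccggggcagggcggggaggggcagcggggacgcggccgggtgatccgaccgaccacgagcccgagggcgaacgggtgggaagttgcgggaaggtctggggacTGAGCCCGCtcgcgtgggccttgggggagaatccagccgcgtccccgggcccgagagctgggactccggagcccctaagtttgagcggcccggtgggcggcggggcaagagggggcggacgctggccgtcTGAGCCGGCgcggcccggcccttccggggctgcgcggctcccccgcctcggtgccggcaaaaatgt

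Among the small MAFs, *MAFF* is the member known to be induced by stress and cytokines. Its probe A_23_P103110 gave 51.6, 37.5, 25.7 and 25.6 units. Wild-type cells were the highest, Arp5 KO cells lay between, and the 2 arrays of Arp8-targeted cells did not differ from each other beyond the technical error, with a log2 ratio of 0.01 between them. Both steps above them were larger than 2 technical SD with the error of probes from 20 to 50 units, a grouping added after the data were seen. With the wider group first planned, all probes under 50 units with an SD of 0.44 for Arp5 KO and 0.46 for Arp8 KO over wild type, neither step was. The ratio of Arp8 KO over wild type, -1.02, which spans both steps, was beyond 2 technical SD with either grouping. The log2 ratios over wild type were -0.44, -1.02 and -1.04, or 1.36-fold, 2.03-fold and 2.05-fold lower. The distance of -1.02 from the 2-fold threshold is a small part of the technical SD of 0.23 for 5 repeated probes of 20 to 50 units, so the side of the threshold on which *MAFF* lies is uncertain. Quantile normalization placed it at -0.96 for Arp8 KO and -0.93 for the array labelled Arp8 overexpression, inside 2-fold, and normexp background correction at -0.39 and -0.44. A difference at least this large between Arp8 KO and wild-type cells was found for 6.15% of all probes of this brightness.

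The window upstream of *MAFF* that holds a match is printed because this gene had the widest range among the members well above background on all arrays (chr22:38201744-38202043, plus strand). Capitals mark the match to TGANNNNGC, which reads on the other strand and starts 122 bases before the start site.
MAFF: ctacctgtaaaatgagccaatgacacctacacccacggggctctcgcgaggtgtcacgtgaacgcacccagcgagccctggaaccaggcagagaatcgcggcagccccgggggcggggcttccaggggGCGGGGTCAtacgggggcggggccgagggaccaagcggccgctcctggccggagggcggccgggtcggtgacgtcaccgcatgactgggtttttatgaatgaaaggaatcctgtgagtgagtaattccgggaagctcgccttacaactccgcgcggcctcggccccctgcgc

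The genes whose 4 values most resembled those of *MAFF*, by Euclidean distance of log2 values centred on each probe's mean, were *COL5A2*, *NDST1*, *CD34*, *AMOT* and *SMAD5-AS1*, out of 12960 genes compared over the 4 arrays. Their distances ran from 0.04 to 0.11. *COL5A2* had 29.7, 22.1, 14.6 and 14.7 units. *CD34*, a surface protein of hematopoietic progenitors, had 40.6, 27.5, 19.4 and 19.3 units. *AMOT* was brighter, with 793, 553, 415 and 388 units. These genes were picked for their likeness, so they are no check on *MAFF*. With only 4 values per probe this likeness is a description, and shared regulation was not tested.

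**Figure D3:**
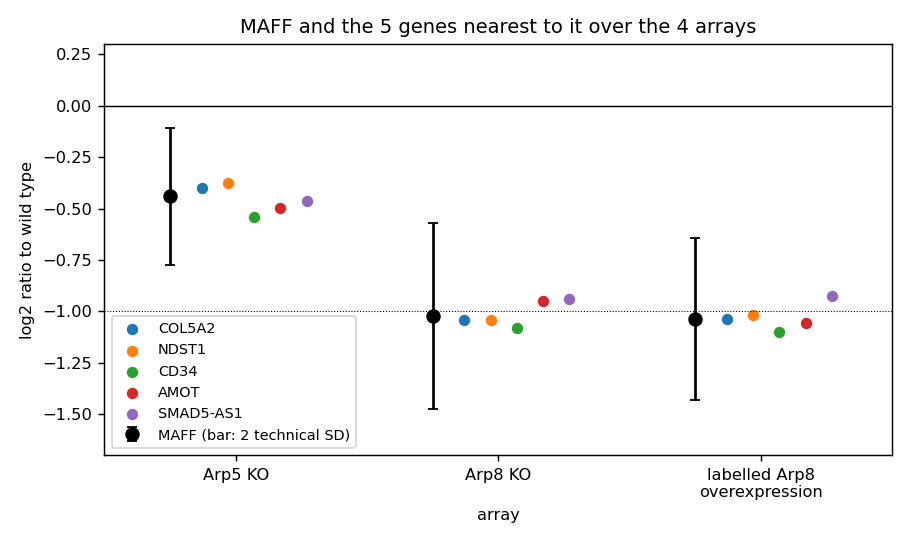
Log2 ratio to wild-type cells of *MAFF* (black, with bars of 2 technical SD) and of the 5 genes nearest to it by distance over 4 arrays, 1 point per array. All 6 genes lie between -0.54 and -0.38 in Arp5 KO cells and near the dotted line of 2-fold on the other arrays, and they were selected for this likeness.

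*MAFG*, which like *MAFK* is expressed in many tissues, has 2 probes. A_23_P390044 gave 11213, 10280, 10731 and 10001 units, with wild-type cells the highest. A_23_P78209 gave 2275, 2278, 2538 and 2344 units, with Arp8 KO cells the highest. Arp5 KO and Arp8 KO cells did not differ beyond 2 technical SD by the first probe, nor did the 3 lower arrays by the second. The probes had opposite signs against wild-type cells, -0.08 and 0.14 in Arp8 KO cells, each beyond 2 technical SD, so no direction is given for *MAFG* there. Taken over the array labelled Arp8 overexpression, Arp8 KO cells were higher by both probes, at 0.11 and 0.12.

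*MAFK* showed a similar relation of Arp8 KO cells to the array labelled Arp8 overexpression by both of its probes. A_23_P373598 gave 4121, 4031, 4994 and 3825 units. A_23_P111698 gave 81.3, 75.9, 86.6 and 67.6 units. Arp8 KO cells were the highest and the array labelled Arp8 overexpression the lowest for both probes, 1.31-fold and 1.29-fold apart, with log2 ratios of 0.39 and 0.36. For A_23_P373598 this size was reached by 11.0% of all probes of its brightness, and for A_23_P111698 by 26.1%. Over wild type its log2 ratios in Arp8 KO cells were 0.26 and 0.07, of which the second is within 2 technical SD. In Arp5 KO cells they were -0.01 and -0.08, both within 2 technical SD, and their sign turned with normexp background correction.

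The inhibitor *KEAP1* gave 15355, 16836, 14421 and 18523 units. Every step from Arp8 KO, the lowest, through wild-type and Arp5 KO cells to the array labelled Arp8 overexpression was beyond 2 technical SD. Over wild type the log2 ratios were 0.16, -0.11 and 0.25. For Arp8 KO over the array labelled Arp8 overexpression it was -0.36, and 13.4% of all probes of this brightness differed at least as much. Over these 2 arrays *KEAP1* was thus lower in Arp8 KO cells, as were *NFE2* and, within 2 technical SD, *NFE2L3*. The other 12 of 15 member probes tested were higher there, not all of them beyond 2 technical SD. Among these were the probes of *NFE2L2*, *MAFK* and *MAFG* and the bright *BACH1* probe at 0.19. This is 1 pair of arrays, and whether the *KEAP1* difference returns in another culture was not tested.

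The machinery that degrades or processes these factors was examined as a list of 21 genes, of which 20 had 35 probes. For Arp5 KO and for Arp8 KO over wild-type cells 0 of the 35 were beyond 2-fold in either direction, and the medians were -0.04 and 0.04. *CUL3*, the cullin of the KEAP1 ligase, had 722, 510, 496 and 502 units by its brighter probe, with wild-type cells above all other arrays and log2 ratios of -0.48, -0.56 and -0.55. Its dim probe gave -0.32, -0.13 and -0.36. *SQSTM1*, whose product p62 sequesters KEAP1, had log2 ratios of 0.33, 0.29 and 0.57. Among 13 cofactors with 26 probes, 0 were beyond 2-fold in either KO cell line, and the medians were 0.07 for Arp5 KO and -0.07 for Arp8 KO. At the shares of all probes given above, 0 in lists of this size is ordinary.

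Of 36 genes known as targets of NRF2 or BACH1, 35 had 56 probes, and 43 of these could be tested. In Arp5 KO cells 1 probe was higher beyond 2-fold and 3 were lower, where 1.17% and 1.14% of all probes were, with a median of 0.03 that turned to -0.05 under quantile normalization. In Arp8 KO cells 2 were higher and 3 lower, where 1.48% and 2.07% of all probes were, with a median of -0.08. Of any size, 23 were higher and 20 lower in Arp5 KO cells, and 12 were higher and 31 lower in Arp8 KO cells. These counts are of probes, and the 43 tested stand for 29 genes. All probes of *FTH1*, *FTL* and *ABCC4* were among the 31 lower in Arp8 KO cells. The share of all probes lower by any size was not counted, and their median log2 ratio was 0.01 for Arp8 KO. The list was chosen with earlier results of these data known, so its counts are a description. *HMOX1*, which degrades heme, was lower in both KO lines, with log2 ratios of -1.37, -0.78 and 0.22. *NQO1*, a quinone reductase, had 49.2, 28.1, 20.1 and 30.8 units, with log2 ratios of -0.78, -1.31 and -0.70. *SLC48A1*, a heme transporter, was higher than in wild-type cells on the other arrays, with 2337, 5206, 4547 and 4565 units and log2 ratios of 1.18, 0.94 and 0.94. The genes below were named after their values were seen, as the others of the list beyond 2-fold. *ABCB6* had log2 ratios of 0.94, 1.18 and 0.72 by one probe and of 0.90, 1.08 and 0.77 by the other. The thioredoxin gene *TXN* had 0.17, -1.06 and -1.02 by one probe and 0.05, -1.15 and -1.17 by the other. *CBR1* had -1.14, -0.46 and -0.54.

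The remaining targets fixed by name were mostly within 2-fold. The subunits of glutamate-cysteine ligase had log2 ratios in Arp5 KO and Arp8 KO cells of 0.35 and 0.32 for *GCLC* and of -0.12 and 0.03 for *GCLM*. *TXNRD1* had -0.18 and -0.23. The cystine transporter gene *SLC7A11* had -0.85 and -0.20 by its brightest probe and -1.10, beyond 2-fold, and -0.08 by the next, and a further probe was not well above background on any array. The ferritin light chain *FTL* had -0.15 and -0.18 and the heavy chain *FTH1* 0.25 and -0.11 by the brightest probe of each.

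The 31 proteasome genes taken as NRF1 targets had 43 probes, and 0 were beyond 2-fold in any comparison. Of all probes over 500 units 0.431% were for Arp5 KO and 0.889% for Arp8 KO, so this is ordinary as well. In Arp5 KO cells 31 were higher and 12 lower than in wild-type cells, with a median of 0.08, but quantile normalization gave 23 and 20 with a median of 0.02. In Arp8 KO cells 23 were higher and 20 lower, with a median of 0.01 that turned to -0.01 under quantile normalization, with 18 higher and 24 lower. On the array labelled Arp8 overexpression 40 were higher and 3 lower than in wild-type cells, with a median of 0.16, against 0.04 over all probes above 500 units. Under the other scalings this median lay between 0.11 and 0.18, and quantile normalization gave 36 higher and 7 lower. Relative to that array, 39 were lower and 4 higher in Arp8 KO cells, with a median of -0.15. With quantile normalization 35 were lower and 8 higher, with a median of -0.11.

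**Figure D4:**
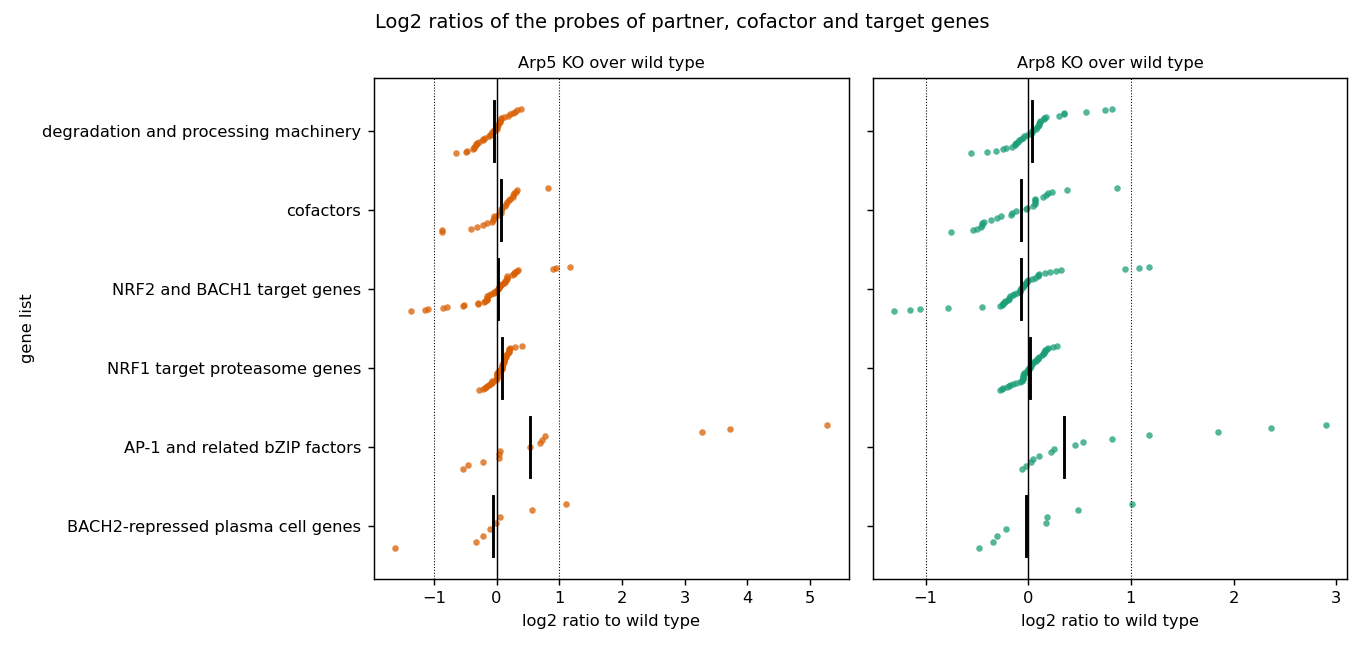
Log2 ratio to wild-type cells of the probes of 6 gene lists, in Arp5 KO and Arp8 KO cells, each panel with its own axis, where points are probes, black bars are medians and dotted lines mark 2-fold. The points of the proteasome list stay near 0, while AP-1 probes reach 5.27 for Arp5 KO and 2.90 for Arp8 KO.

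Large MAFs and AP-1 proteins can bind overlapping elements. The large MAF gene *MAF* was within 2-fold, with log2 ratios of -0.12, 0.12 and -0.11. In the AP-1 list 3 of 13 probes tested were higher beyond 2-fold in Arp5 KO and 4 of 14 in Arp8 KO cells, and 0 were lower. Of all probes, 1.17% were higher for Arp5 KO and 1.48% for Arp8 KO. This list, too, was chosen with earlier results of these data known, so its counts are a description and no test. *FOS* had log2 ratios of 5.27, 2.36 and 0.90, *JUN* of 3.72, 2.90 and 0.77 and *FOSB* of 3.28, 1.18 and 0.57. The medians of the list were 0.54, 0.35 and -0.04, the last of them with 6 probes higher and 7 lower. Quantile normalization turned this last median to 0.06, with 8 higher and 5 lower. The additional gene in Arp8 KO cells was *BATF*, which is named after its value was seen. Its log2 ratios were -0.53, 1.85 and 1.33. On the array labelled Arp8 overexpression it was the only gene of the list beyond 2-fold.

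A list of plasma cell genes, taken here as held back by BACH2 in B cells, had 8 probes of 5 genes. Whether BACH2 acts on each of them was not tested. *PRDM1*, the plasma cell regulator Blimp-1, had 44.2, 94.1, 62.4 and 63.8 units, with log2 ratios of 1.11, 0.48 and 0.51. Wild-type cells were the lowest for *PRDM1* and the highest for *BACH2*, but the list as a whole had medians of -0.05 and -0.02 in the KO cell lines. *JCHAIN*, the immunoglobulin joining chain, had 133.9, 43.1, 272.6 and 1095 units, so that it was lower in Arp5 KO cells and higher on both other arrays than in wild-type cells. Its log2 ratios were -1.61, 1.01 and 3.01. As markers of plasma cells, *SDC1*, *PRDM1* and *JCHAIN* were well above background on all arrays, with a summed signal of 11921, 11667, 13765 and 14969 units, most of it from *SDC1*. Fewer cells of a type and less RNA per cell cannot be told apart here, and the part of such cells in these values was not tested.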

How the data were processed

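Single-color Agilent arrays of Nalm-6 cells without oxidative stress were used, 1 per genotype. The deposited scanner output (Agilent Feature Extraction 10.5.1.1) gives a processed signal, an intensity on a linear scale from which the software had subtracted background. The authors also deposited a table of intensity values. For spots over 200 units it equals the processed signal times 1 factor per array (dimmer spots were not compared), with column medians of 127.45 (wild type), 127.9 (Arp5 KO), 122.5 (Arp8 KO) and 119.1 (labelled Arp8 overexpression). How the factor was set is not given in the sources used here. From these intensities the log2 signal minus the array's 75th percentile over non-control spots was taken. Outlier spots were left out, and spots of 1 probe were averaged. The dimmer array of a pair was raised, where lower, to its lowest signal among probes well above background, which makes the ratio a bound. No spot was saturated.

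Genes were named through accessions with the gene table of GRCh38.p14, which matched 26222 of 41000 probes (64.0%). The scanner output names another build (hg18), so coordinates are given for the RefSeq promoter windows only. The members and gene lists were chosen with earlier results of these data known. Named genes are all members, the targeted genes, listed genes fixed whatever their values, up to 3 genes per list with the largest ratio beyond 2-fold in either KO cell line, and the 5 genes nearest to the member of widest range. Markers are named as checks, and genes named outside this rule after their values were seen are *ABCB6*, *TXN*, *CBR1*, *BATF*, *EPB41L4A* and *C11orf16*. Technical error was the SD of spotwise ratios over probes with at least 5 spots, and its finer grouping under 50 units was added after seeing the data. Alternatives were other scalings, the deposited table, normexp on the median signal (limma 3.58.1, R 4.3.3, offset 50), other filters and folds, and 1 probe a gene. Python 3.11.15, numpy 2.4.6, pandas 2.3.3 and matplotlib 3.10.9 were used.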

Additional observations from a re-analysis of the deposited data

Results flagged for a closer look

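In *BACH1*, *KEAP1* and *NFE2L2* the KO lines lay on opposite sides of wild type, each beyond 2 technical SD of a ratio from single spots, a bar that 64.2% of all probes passed for Arp5 KO and 65.3% for Arp8 KO. How many of all probes pass it on opposite sides was not counted, so whether these genes are set apart from others cannot be said. Both ratios also share the wild-type array. *BACH1* by probe A_23_P211047 had log2 ratios of -0.22 for Arp5 KO and 0.09 for Arp8 KO, a difference of 0.309. *KEAP1* had 0.16 and -0.11, a difference of -0.263. *NFE2L2* had -0.08 and 0.07, a difference of 0.152. Each sign was the same under every scaling and background correction tried. With 1 array per cell line the difference between them was not tested, and the dim probe of *BACH1* had the opposite signs within its technical error.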

How the results depend on the processing

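No paired analysis was possible because only 1 array exists for any genotype. Of 58 single-probe log2 ratios of the members, 52 kept their sign under all other scalings, background corrections and filters tried, and the 6 that changed sign were at most 0.13 in size. The number of member probes beyond 2-fold depended on *MAFF* and on dim probes. Quantile normalization gave 0 for Arp8 KO over wild type, in place of 1, and 1 for the array labelled Arp8 overexpression, in place of 2. Normexp gave 0 and 1 as well, with *MAFF* at -0.39 and -0.44 and *NFE2* at 1.53, since its offset by construction shrinks what dim probes show. A filter for signal well above background on every array removed *NFE2*, which left 1 for the array labelled Arp8 overexpression and 0 for Arp8 KO over that array. With no filter on dim probes the numbers were 1 for Arp5 KO and 2 for Arp8 KO, through *NFE2L3* and *NFE2* probes not well above background. The median over the members for Arp5 KO was 0.0278 with normexp. With 1 probe a gene, the brightest, it was -0.103 for Arp5 KO and -0.0806 for Arp8 KO, so the sign of the median depends on these choices. No other count of member probes beyond 2-fold changed by over 1.5 times. No other median over the members changed by over 1 technical SD of a probe from 50 to 500 units. In the gene lists some medians and counts moved more than this under quantile normalization. Single ratios changed by over 1 technical SD of their own brightness for 36 of the 58 with normexp, 20 with the submitters' table and 15 with quantile normalization. Technical error limits most the members under 50 units, *MAFF*, *NFE2L3* and the dim *BACH1* probe.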
